A study of Mus musculus with 9 samples.

Results

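The peroxisome proliferator-activated receptors (PPARs) are nuclear receptors through which cells read the supply of fatty acids. Bound to a fatty acid or a derivative of one, and paired with a retinoid X receptor (RXR), a PPAR switches on genes for the uptake, storage and burning of lipid, with help from coactivators of the PGC-1 family. Here 9 genes of this system, chosen by name, were followed across mouse embryoid bodies (EBs), round clusters of embryonic stem (ES) cells on their way to differentiation. They were the receptors *Ppara*, *Ppard* and *Pparg*, the coactivators *Ppargc1a* and *Ppargc1b*, the target genes *Angptl4* and *Pdk4*, the intracellular fatty acid carrier *Fabp5* and the fatty acid uptake receptor *Cd36*. All 9 symbols were matched to 1 Ensembl identifier each among the 55471 in the table.

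RNA was sequenced in 9 libraries, 3 per group. WT EBs came from the parental E14 ES cell line, and KO EBs from 1 CRISPR-edited clone of it that carries a premature stop in *Tnfaip2* (labelled *Tnfaip2*-/-), so that clone and genotype cannot be told apart. KO_PAPC EBs were made from the same clone and grown with a saturated fatty acid, palmitic acid, and its carnitine ester, palmitoyl-L-carnitine (together PA/PC), each at 8 µM. EBs formed over 3 days and were then plated in a differentiation medium (MEF medium) for another 3 days before harvest. The methods of the study describe PA/PC as present from EB formation onwards, in MEF medium, and EBs of the untreated genotypes as formed in ES cell medium, so that in every comparison with KO_PAPC the lipids and the medium during EB formation cannot be told apart. The study describes the replicates as biological ones, and the untreated cultures of its treatment experiment as given vehicle. There was no PA/PC-treated WT library among those analysed, so that KO_PAPC versus WT sets genotype and treatment against each other together.

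Depth was even, from 27362913 to 28914312 counts per library. Values below are read counts, or CPM, counts scaled with TMM factors to a common library size (normalised CPM, which corrects for a few abundant genes taking up a library). The TMM factors were 1.04 in WT and KO libraries and between 0.921 and 0.926 in KO_PAPC libraries. Without them the median log2 change of all genes would move by -0.17 in KO_PAPC versus KO and by -0.17 in KO_PAPC versus WT, and small differences of KO_PAPC therefore depend on the scaling. *Tnfaip2* itself held between 5 and 25 counts per library in all groups, which gives no check of the genotype labels, as a frameshift need not lower the transcript. The pluripotency markers *Pou5f1*, *Nanog*, *Sox2* and *Zfp42* were abundant in every library, but their summed level differed between groups. It ran from 1753 to 1772 CPM in WT, 2625 to 2650 in KO and 1859 to 1894 in KO_PAPC. Markers of formative or primed epiblast (*Fgf5*, *Otx2*, *Dnmt3b*, *Pou3f1*) summed to 472 to 478, 362 to 376 and 1108 to 1144 CPM in the same order. The part of these differences of state in the values below was not tested. Macrophage markers (*Ptprc*, *Csf1r*, *Adgre1*) and adipocyte markers (*Adipoq*, *Plin1*, *Fabp4*), which mark the cells in which *Cd36* and *Pparg* are best known, were near 0. Their summed level was at most 0.242 and 0.333 CPM, and *Ptprc*, *Adgre1* and *Fabp4* had at most 3 counts in any library.

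Levels of different genes are compared per kilobase of the longest protein-coding transcript (RPKM). On that scale the set fell into 5 genes that were well measured and 4 that were barely detected. In WT EBs *Fabp5* was highest, at 20.7 ± 1.02 RPKM (SD, n = 3), followed by *Ppard* at 8.39 ± 0.638, *Pdk4* at 5.08 ± 0.322, *Angptl4* at 4.99 ± 0.363 and *Ppargc1b* at 1.21 ± 0.141. *Pdk4* and *Angptl4* overlapped in their libraries and could not be ordered, in WT and in KO alike. *Pparg*, *Ppara*, *Cd36* and *Ppargc1a* had mean levels between 0.0212 and 0.108 RPKM in WT. In KO_PAPC *Pdk4* dropped from the third to the fifth place, at 1.42 ± 0.0666 RPKM, below *Angptl4* at 5.44 ± 0.302 and *Ppargc1b* at 1.92 ± 0.155, with no overlap between neighbours among these 3 genes. In bulk RNA, fewer cells that express a gene and less RNA per cell cannot be told apart, here or in any comparison that follows.

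**Figure D1:**
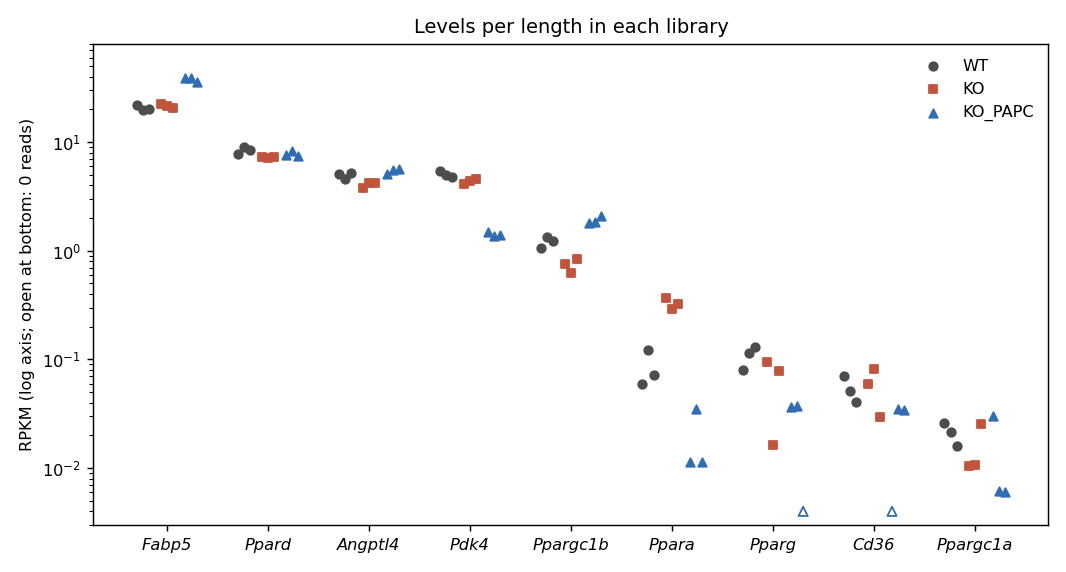
Level of each gene per kilobase of transcript (RPKM, log axis) in each of the 9 libraries, with genes ordered by their mean over groups and open symbols at the bottom for libraries with 0 reads. *Fabp5* and *Ppard* lead in every group, *Pdk4* sits near 5.08 RPKM in WT and near 1.42 in KO_PAPC, and the 4 genes on the right reach at most 0.365 RPKM.

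PPARs bind DNA at repeats of the half-site AGGTCA spaced by 1 base, and the proximal promoters of the members were searched for them. The reference table held promoters (250 bases before to 50 bases after the start) for 6 of the 9 genes, 8 promoters in all. The 2 receptor and target genes with the largest differences between groups are printed with that of *Cd36*, from RefSeq on GRCm38.p6, 5′ to 3′ on the strand of the gene. Capitals mark the half-site, read on either strand, so that TGACCT is its reverse complement.
Ppara, chr15:85735526-85735825, plus strand: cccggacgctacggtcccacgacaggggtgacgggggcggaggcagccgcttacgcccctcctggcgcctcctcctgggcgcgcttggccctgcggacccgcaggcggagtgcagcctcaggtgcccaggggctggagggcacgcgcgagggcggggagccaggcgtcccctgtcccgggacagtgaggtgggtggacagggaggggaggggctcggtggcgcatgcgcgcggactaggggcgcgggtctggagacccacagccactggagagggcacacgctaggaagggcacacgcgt
Pdk4, chr6:5496229-5496528, minus strand: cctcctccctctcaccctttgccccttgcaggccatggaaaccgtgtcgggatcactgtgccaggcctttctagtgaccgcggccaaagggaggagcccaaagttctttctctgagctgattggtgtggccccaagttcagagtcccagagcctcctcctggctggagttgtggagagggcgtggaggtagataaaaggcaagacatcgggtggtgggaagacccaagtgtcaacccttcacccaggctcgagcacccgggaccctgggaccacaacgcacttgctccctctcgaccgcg
Cd36, chr5:17835847-17836146, minus strand: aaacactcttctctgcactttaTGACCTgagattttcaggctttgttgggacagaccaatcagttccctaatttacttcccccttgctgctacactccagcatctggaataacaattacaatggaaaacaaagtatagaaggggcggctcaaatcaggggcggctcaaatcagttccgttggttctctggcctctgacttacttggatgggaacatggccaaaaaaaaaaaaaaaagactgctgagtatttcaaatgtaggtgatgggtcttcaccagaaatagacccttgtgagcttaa
The half-site occurred in 3 of the 8 promoters, that of *Cd36* and 2 of *Pparg*, and in 16.3% of all 32851 promoters of the table. The promoters of *Ppara*, *Ppard*, *Pdk4* and *Ppargc1a* did not hold these letters in this window. The pair of half-sites spaced by 1 base occurred in 0 of the 8 and in 0.0396% of all promoters. A match is a description of the sequence, and the search says nothing about binding outside the window.

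*Ppard*, which encodes the most widely expressed PPAR, made up nearly all of the receptor RNA in these EBs. In WT it took 97.8% ± 0.404 (SD, n = 3) of the summed RPKM of the 3 receptors, in KO 94.9% ± 0.921, and in KO_PAPC 99.5% ± 0.359. The gene (ENSMUSG00000002250) lies on chromosome 17, 28232700 to 28301474 (GRCm38). Its counts were 747, 850 and 800 in WT, 707, 682 and 712 in KO, and 642, 692 and 631 in KO_PAPC. The corresponding levels were 27.5 ± 2.09, 23.6 ± 0.199 and 25.6 ± 1.5 normalised CPM. All 3 KO libraries lay below all WT libraries, and the KO_PAPC libraries overlapped those of WT. In KO versus WT *Ppard* fell by 0.22 ± 0.0521 on the log2 scale (± SE, edgeR quasi-likelihood test, adjusted p = 3.49e-04), a 1.16-fold difference. In KO_PAPC versus KO the log2 difference was 0.11, with a 95% interval of 0.00804 to 0.217 (adjusted p = 0.0512), and in KO_PAPC versus WT it was -0.11, with an interval of -0.223 to 0.00509 (adjusted p = 0.0980). Neither passed the threshold of 0.05. With scaling by library totals they were -0.05 and -0.27, the latter called (adjusted p = 0.000198), so the place of KO_PAPC relative to the others depends on the scaling for *Ppard*.

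*Ppara*, the receptor best known for driving fatty acid oxidation and ketogenesis in liver, was the member with the largest relative differences, all at a very low level. The gene (ENSMUSG00000022383) lies on chromosome 15, 85734983 to 85802819. Its counts were 6, 12 and 7 in the WT libraries, 37, 29 and 33 in those of KO, and 1, 3 and 1 with PA/PC. The 3 groups did not overlap: every KO library was above every WT library, and every KO_PAPC library below. In normalised CPM the means were 0.287 ± 0.113, 1.11 ± 0.126 and 0.0655 ± 0.0460. *Ppara* rose in KO versus WT by 1.94 ± 0.291 (log2, adjusted p = 3.86e-07), and fell with PA/PC (adjusted p = 8.99e-11). It passed the abundance filter in these comparisons only through the KO libraries, where it is high, so both p-values describe a gene that had to differ to be tested. From the summed counts, KO was 3.89-fold above WT (exact 95% counting interval 2.49 to 6.29) and 17.1-fold above KO_PAPC (7.08 to 53.8). KO_PAPC versus WT was under the abundance filter and was not tested, and the summed counts of 25 and 5 gave a WT level 4.4-fold above KO_PAPC (1.65 to 14.7). The counting intervals cover counting error only. Even in KO, *Ppara* took 4.29% ± 0.411 of the receptor RNA per length, against 0.966% ± 0.309 in WT and 0.238% ± 0.152 in KO_PAPC.

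Markers of primitive and visceral endoderm, an early lineage that takes up and handles lipid, fell together with *Ppara* in KO_PAPC. Their summed level over 8 genes ran from 201 to 210 CPM in WT, 149 to 153 in KO and 25.1 to 25.5 in KO_PAPC. All 8 markers fell in KO_PAPC versus KO and in KO_PAPC versus WT, and in KO versus WT 3 rose and 5 fell. Other markers had the order of groups of *Ppara* in both steps. The genes listed for endothelium (*Pecam1*, *Cdh5*, *Tek*) summed to 82.6 to 85.7 CPM in WT, 138 to 143 in KO and 29 to 31 in KO_PAPC. Most of it was *Pecam1*, at 77.6 ± 1.26, 133 ± 2.02 and 28.7 ± 1.45 CPM in the same order. *Cdh5* had at most 18 counts in any library, so the sum follows *Pecam1* and is no measure of endothelial cells. Of the pluripotency markers, *Nanog* and *Zfp42* had that order of group means, while *Pou5f1* and *Sox2* did not. The part of any of these cells or states in the *Ppara* values was not tested.

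*Pparg*, the receptor of fat cell formation, was close to the floor in all groups. The gene (ENSMUSG00000000440, chromosome 6, 115360951 to 115490399) had 5, 7 and 8 counts in WT, 6, 1 and 5 in KO, and 2, 2 and 0 in KO_PAPC. It passed the abundance filter in no comparison. WT and KO libraries overlapped, while all WT libraries were above all KO_PAPC libraries, with a ratio of summed counts of 4.4 (exact counting interval 1.47 to 17.7). Between KO and WT the ratio was 0.589 (0.263 to 1.27), and a change was not detectable at this depth.

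**Figure D2:**
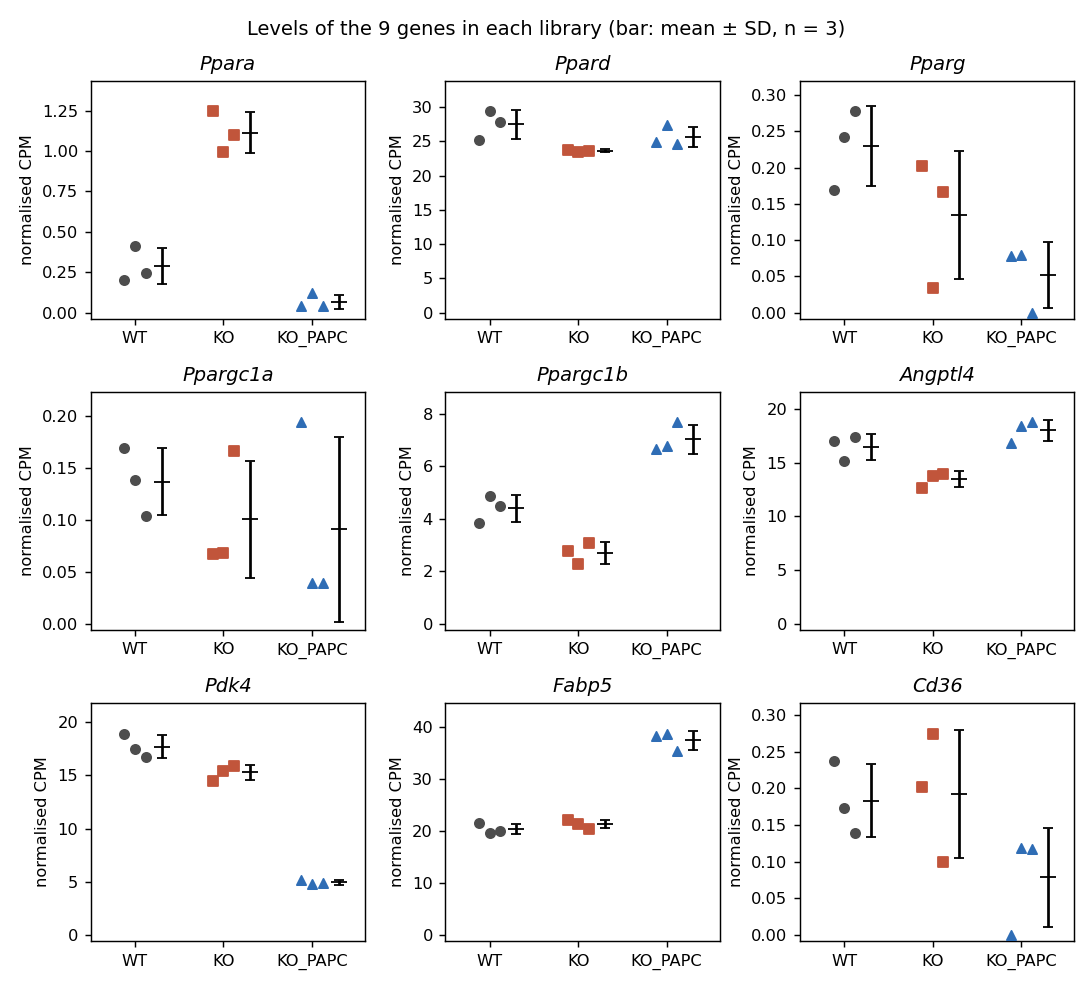
Normalised CPM of the 9 genes in each library (points) by group, with the mean ± SD of 3 libraries (bar), each panel on its own linear axis. *Ppara* is high in KO alone at 1.11 CPM, *Pdk4* is low in KO_PAPC at 4.94 CPM, *Fabp5* and *Ppargc1b* are highest in KO_PAPC, and *Pparg*, *Ppargc1a* and *Cd36* reach at most 0.278 CPM.

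The 2 PGC-1 coactivators, which join PPARs and estrogen-related receptors to raise mitochondrial gene expression, were unequal in abundance. *Ppargc1b* (ENSMUSG00000033871, chromosome 18, 61298136 to 61400431) had 114, 141 and 129 counts in WT, 82, 66 and 93 in KO, and 171, 171 and 197 in KO_PAPC. The groups were in the order KO, WT, KO_PAPC with no overlap, at 2.71 ± 0.415, 4.41 ± 0.516 and 7.03 ± 0.567 normalised CPM. *Ppargc1b* fell by 0.70 ± 0.127 in KO versus WT (log2, edgeR, adjusted p = 9.34e-06). It rose by 1.37 ± 0.117 with PA/PC (adjusted p = 3.51e-13), a 2.58-fold difference, and ended above WT by 0.67 ± 0.105 (adjusted p = 3.98e-06). *Ppargc1a* (ENSMUSG00000029167, chromosome 5, 51454250 to 51567726) had between 1 and 5 counts in every library and was not tested. Its groups overlapped throughout, and each counting interval of its ratios between groups included 1.

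*Angptl4* and *Pdk4* are both classical PPAR targets that fasting and fatty acids raise in many tissues, but their measurements parted under PA/PC. *Angptl4* encodes a secreted inhibitor of lipoprotein lipase. The gene (ENSMUSG00000002289, chromosome 17, 33773750 to 33781830) had 502, 437 and 500 counts in WT, 374, 401 and 420 in KO, and 434, 465 and 481 in KO_PAPC. All KO libraries were below all others on the normalised scale, with means of 16.5 ± 1.20, 13.5 ± 0.738 and 18 ± 0.998 CPM. It fell by 0.30 ± 0.0645 in KO versus WT (log2, edgeR, adjusted p = 1.18e-04) and rose by 0.42 ± 0.0646 in KO_PAPC versus KO (adjusted p = 3.72e-07). KO_PAPC differed from WT by 0.12 ± 0.0657 (adjusted p = 0.114), with an interval of -0.0112 to 0.246, and by -0.05 with scaling by library totals.

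*Pdk4* encodes a kinase that shuts pyruvate dehydrogenase and so spares glucose carbon when fat is burned. The gene (ENSMUSG00000019577, chromosome 6, 5483351 to 5496309) had 560, 504 and 482 counts in WT, 430, 449 and 479 in KO, and 134, 121 and 124 in KO_PAPC. The KO_PAPC libraries stood far below the rest, at 4.94 ± 0.232 normalised CPM against 15.3 ± 0.730 in KO and 17.7 ± 1.12 in WT. *Pdk4* fell by 1.63 ± 0.0820 with PA/PC (log2, edgeR, adjusted p = 7.23e-20), a 3.10-fold difference. It also fell in KO versus WT, by 0.22 ± 0.0607 (adjusted p = 0.00198), so that KO_PAPC lay 3.60-fold below WT (log2 -1.85 ± 0.0821, adjusted p = 4.39e-16). In KO_PAPC versus KO the 95% interval ran from -1.79 to -1.47 for *Pdk4* and from 0.290 to 0.543 for *Angptl4*.

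The other 3 kinases of pyruvate dehydrogenase did not move with *Pdk4* under PA/PC. *Pdk1*, the isoform known as a hypoxia target, rose by 0.81 ± 0.0251 (log2, edgeR, adjusted p = 2.45e-26), from 249 ± 1.77 to 436 ± 5.41 CPM. *Pdk3* rose by 0.16 ± 0.0350 (adjusted p = 6.30e-05), a direction that reached -0.003 with scaling by library totals. *Pdk2* was not called, at -0.02 ± 0.110 (adjusted p = 0.843). *Pdk1* was the most abundant of the 4 in every group on the CPM scale as well as per length.

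*Angptl4* is known to respond to hypoxia too, and a list of 10 hypoxia-responsive genes (*Pdk1* among them) moved in the same direction as *Angptl4* in both steps. Their summed level ran from 2774 to 2896 CPM in WT, 1385 to 1434 in KO and 4923 to 5152 in KO_PAPC. All 10 fell in KO versus WT, and all 10 rose in KO_PAPC versus KO. *Slc2a1* made up most of the sum. Oxygen was not measured here, and the part of this program in the *Angptl4* values was not tested.

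*Fabp5*, a carrier that brings fatty acids to the nucleus and to *Ppard* in particular, was the most abundant member per kilobase of transcript in all groups. In CPM *Ppard* was above *Fabp5* in WT (27.5) and in KO (23.6). The gene (ENSMUSG00000027533, chromosome 3, 10012548 to 10016607) had 637, 568 and 576 counts in WT, 656, 623 and 615 in KO, and 985, 980 and 906 in KO_PAPC. WT and KO libraries overlapped and every KO_PAPC library was above them, with means of 20.4 ± 1.0, 21.3 ± 0.831 and 37.4 ± 1.86 normalised CPM. *Fabp5* rose by 0.81 ± 0.0513 with PA/PC (log2, edgeR, adjusted p = 7.92e-17), or 1.75-fold, and was 1.82-fold above WT (log2 0.87 ± 0.0541, adjusted p = 3.62e-13). Between KO and WT it differed by 0.06 ± 0.0542 (adjusted p = 0.318), with an interval of -0.0460 to 0.167. Of the 51-base words of its transcripts, 20.4% also occur in other genes, mostly processed copies such as *Gm6166* and *Gm14328*, and reads that fit several places were left out of the counts, so the level of *Fabp5* is uncertain. For the other members this share was at most 1.35%.

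*Cd36*, the cell surface receptor that takes up long-chain fatty acids, was barely detected. The gene (ENSMUSG00000002944, chromosome 5, 17781690 to 17888801) had 7, 5 and 4 counts in WT, 6, 8 and 3 in KO, and 0, 3 and 3 in KO_PAPC. It was not tested in any comparison. The ratio of summed counts was 1.04 for KO over WT (exact counting interval 0.495 to 2.21) and 0.409 for KO_PAPC over KO (0.132 to 1.09), so no difference was detectable at this depth.

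**Figure D3:**
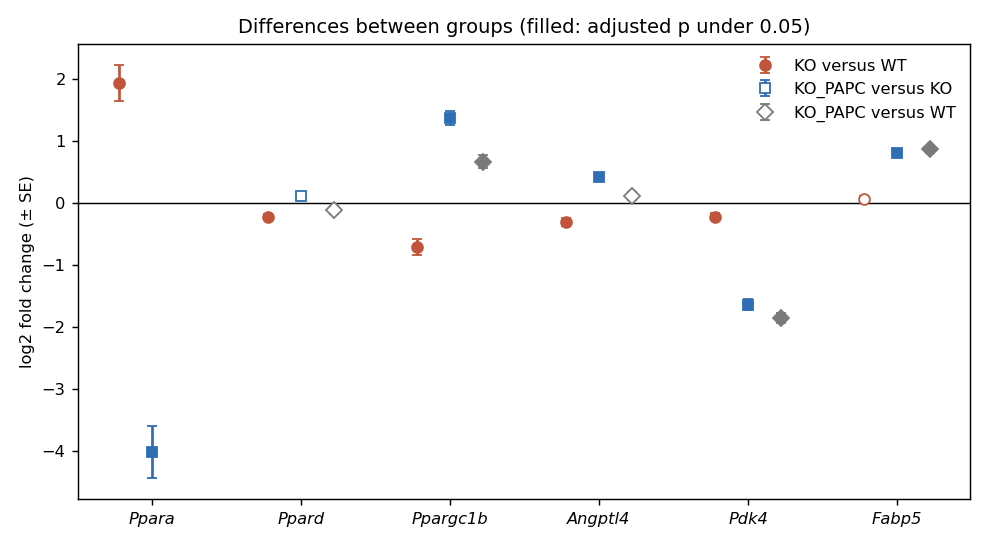
Log2 fold change ± SE of the 6 members that could be tested, in KO versus WT (circles), KO_PAPC versus KO (squares) and KO_PAPC versus WT (diamonds), filled where the adjusted p was under 0.05. *Ppara* and *Pdk4* lie at -4.01 and -1.63 in KO_PAPC versus KO while *Ppargc1b*, *Fabp5* and *Angptl4* lie above 0, and *Ppara* has no value against WT for KO_PAPC.

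Counted together, 6 members passed the abundance filter in KO versus WT, of which 1 rose (*Ppara*) and 4 fell (*Ppard*, *Ppargc1b*, *Angptl4*, *Pdk4*). Over all 17355 genes tested 73.8% were called, 36.8% as higher and 37.1% as lower, so that 5 of 6 is near the background. In KO_PAPC versus KO 6 members were tested, 3 rose (*Ppargc1b*, *Angptl4*, *Fabp5*) and 2 fell (*Ppara*, *Pdk4*), beside 81.8% of all 17167 genes, 39.6% higher and 42.2% lower. In KO_PAPC versus WT 5 members were tested, 2 rose (*Ppargc1b*, *Fabp5*) and 1 fell (*Pdk4*), beside 70.6% of 16655 genes, 34.2% higher and 36.4% lower. These shares make the number of called members no result about the set. A tested minimum fold change of 2 was passed by 1 member in KO versus WT (*Ppara*), where 9.14% of genes passed, by 3 in KO_PAPC versus KO (*Ppara*, *Pdk4*, *Ppargc1b*), where 20.7% passed, and by 1 in KO_PAPC versus WT (*Pdk4*), where 8.02% passed. *Ppara* entered KO versus WT and KO_PAPC versus KO only through its high KO libraries. It had to differ to be tested, and its place in these counts is no support for a difference. The first and second comparisons share the KO libraries, so the opposite signs that *Ppara*, *Ppargc1b* and *Angptl4* showed there are not independent of each other.

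The wider PPAR pathway was read from a list of 81 genes arranged by role, which holds no member. In KO versus WT 68 were tested, 31 rose and 26 fell. With PA/PC 24 of 66 rose and 34 fell, and in KO_PAPC versus WT 20 of 63 rose and 32 fell. The called shares of 83.8%, 87.9% and 82.5% were somewhat above those of all genes, and median log2 changes were 0.03, -0.13 and -0.14, beside -0.01, -0.02 and -0.02 over all genes. Counts by role or marker list, above and below, stand beside 36.8% of all genes called higher and 37.1% lower in KO versus WT. With PA/PC these shares were 39.6% and 42.2%, and in KO_PAPC versus WT 34.2% and 36.4%. Some genes in these counts and medians, such as *Vnn1* with PA/PC, passed the abundance filter only through the group where they are high.

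The RXR partners, without which PPARs do not bind DNA, moved in different directions. *Rxrg* held 137 to 178 counts in WT, 57 to 74 in KO and 623 to 672 in KO_PAPC, or 5.40 ± 0.708, 2.21 ± 0.300 and 25 ± 1.05 CPM. It rose by 3.50 ± 0.0888 with PA/PC (log2, edgeR, adjusted p = 4.24e-29). *Rxrb*, the most abundant, rose by 0.73 ± 0.0314 (adjusted p = 6.51e-22), while *Rxra* fell by 0.89 ± 0.0472 (adjusted p = 4.41e-19). In KO versus WT each moved the other way: *Rxra* rose by 0.54 ± 0.0412, and *Rxrb* and *Rxrg* fell by 0.41 ± 0.0311 and 1.29 ± 0.127.

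Of 8 coactivators, 5 rose and 2 fell in KO versus WT, and with PA/PC 3 rose and 5 fell. *Ncoa3*, a p160 coactivator, differed most and had levels of 229 ± 1.82 CPM (WT), 406 ± 3.77 (KO) and 163 ± 1.51 (KO_PAPC), a rise of 0.82 ± 0.0226 and a fall by 1.32 ± 0.0262 on the log2 scale. *Ncoa1* and *Med1*, a Mediator subunit that docks on nuclear receptors, fell by 0.92 ± 0.0493 and 0.89 ± 0.0299 with PA/PC. The 4 corepressors moved little, the largest difference being that of *Hdac3*, which rose by 0.45 ± 0.0309 with PA/PC (adjusted p = 6.64e-16), while *Ncor1* fell by 0.26 ± 0.0267 and *Nrip1* was not called (0.07 ± 0.0642, adjusted p = 0.284). Among the factors that PGC-1 proteins coactivate, all 5 tested rose in KO versus WT, beside 36.8% of all genes called higher. The rises were small, from 0.12 (*Nrf1*) to 0.61 (*Esrrb*) on the log2 scale. *Esrrb*, which in ES cells also belongs to the pluripotency network, fell by 1.05 ± 0.0252 with PA/PC (adjusted p = 7.64e-30), and *Esrra* fell by 0.71 ± 0.0490 (adjusted p = 8.39e-16). *Tfam*, which maintains mitochondrial DNA, was not called there (0.03 ± 0.0292, adjusted p = 0.369) and fell by 0.14 with scaling by library totals.

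Of 10 tested genes of fatty acid uptake and binding, 6 rose and 4 fell with PA/PC. *Crabp2*, a retinoic acid carrier that in other settings competes with *Fabp5* for delivery of its ligand, showed the widest swing: 2314 to 2477 counts in WT, 281 to 316 in KO and 2061 to 2138 in KO_PAPC. It fell by 3.05 ± 0.0479 in KO versus WT (log2, edgeR, adjusted p = 7.58e-33) and rose by 3.03 ± 0.0499 with PA/PC (adjusted p = 5.28e-35). KO_PAPC and WT differed by -0.02 ± 0.0367 (adjusted p = 0.589), and by -0.19 with scaling by library totals, where the difference was called (adjusted p = 6.54e-05). Carriers of the same family as *Fabp5* went apart. *Fabp7*, found in neural progenitors, held 10 to 16 counts in KO and 63 to 69 in KO_PAPC, a rise of 2.6 ± 0.218 (adjusted p = 2.18e-13). *Fabp7* passed the abundance filter there only through the KO_PAPC libraries, where it is high. That p-value therefore describes a gene that had to differ to be tested. *Fabp3*, known from heart and muscle, fell from 82.5 ± 2.78 to 13.5 ± 1.11 CPM (log2 -2.61 ± 0.0503, adjusted p = 7.02e-33). *Fabp3* shares 36.9% of its transcript words with other genes and its level is uncertain. The neuroectoderm markers *Sox1*, *Pax6*, *Nes* and *Zic1* ran from 125 to 130 CPM in sum in WT, 36.1 to 39.6 in KO and 228 to 232 in KO_PAPC. All 4 fell in KO versus WT and rose with PA/PC, beside *Crabp2* and *Fabp7*, and their part in these values was not tested. *Zic1* passed the abundance filter in both comparisons only through the group where it is high.

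Of 17 tested genes of fatty acid oxidation and ketogenesis, 5 rose and 10 fell with PA/PC, and in KO versus WT 7 of 18 rose and 8 fell. *Slc25a20*, which carries acylcarnitines such as palmitoylcarnitine into mitochondria, had levels of 94.8 ± 1.61 CPM (WT), 113 ± 4.57 (KO) and 29.3 ± 0.986 (KO_PAPC), and fell by 1.95 ± 0.0407 with PA/PC (log2, edgeR, adjusted p = 8.78e-32). *Ehhadh*, a peroxisomal oxidation enzyme, followed *Ppara* in its order of groups, with 204 to 245 counts in WT, 550 to 560 in KO and 78 to 104 in KO_PAPC. *Ehhadh* rose by 1.25 ± 0.0675 in KO and fell by 2.46 ± 0.0891 with PA/PC (adjusted p = 2.74e-24).

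Of 12 tested genes of lipid storage and other PPAR targets, 3 rose and 8 fell with PA/PC. Some of those that fell, such as *Vnn1* and *Cidec*, passed the abundance filter there only through the KO libraries. *Cidea* and *Cidec*, lipid droplet proteins, were highest in KO: *Cidea* had 23 to 45 counts in WT, 116 to 144 in KO and 12 to 20 in KO_PAPC, and *Cidec* 4 to 9, 22 to 39 and 2 to 4. *Vnn1*, which makes cysteamine from pantetheine and is a known *Ppara* target in liver, had 32, 28 and 34 counts in WT, 16, 22 and 16 in KO, and 0, 0 and 1 in KO_PAPC. *Vnn1* fell in KO versus WT by 0.82 ± 0.241 (edgeR, adjusted p = 0.00274, and 0.0518 with DESeq2), where *Ppara* rose. It also fell with PA/PC (edgeR, adjusted p = 1.53e-08). There *Vnn1* passed the abundance filter only through the KO libraries, so that p-value describes a gene that had to differ to be tested. Among other sensors of fatty acids and sterols, *Hnf4a*, a receptor that binds fatty acids and marks visceral endoderm in EBs, fell from 9.73 ± 0.237 to 0.795 ± 0.114 CPM with PA/PC (log2 -3.61 ± 0.137, adjusted p = 1.32e-23). *Nr1h3* fell by 0.96 ± 0.179 in KO and rose by 1.0 ± 0.187 with PA/PC. *Nr1h2* stayed between 110.5 and 111.5 CPM in the group means and was called in no comparison, but with scaling by library totals it was called lower in KO_PAPC than in KO (-0.17, adjusted p = 4.04e-05) and than in WT (-0.16, adjusted p = 0.00106). *Ffar1*, *Ffar2*, *Ffar3*, *Gpr84* and *Hnf4g* did not pass the abundance filter in any comparison. The fall of endoderm markers in KO_PAPC given above stands beside those of *Hnf4a*, *Vnn1* and *Ehhadh* too, and was not tested as their source.

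**Figure D4:**
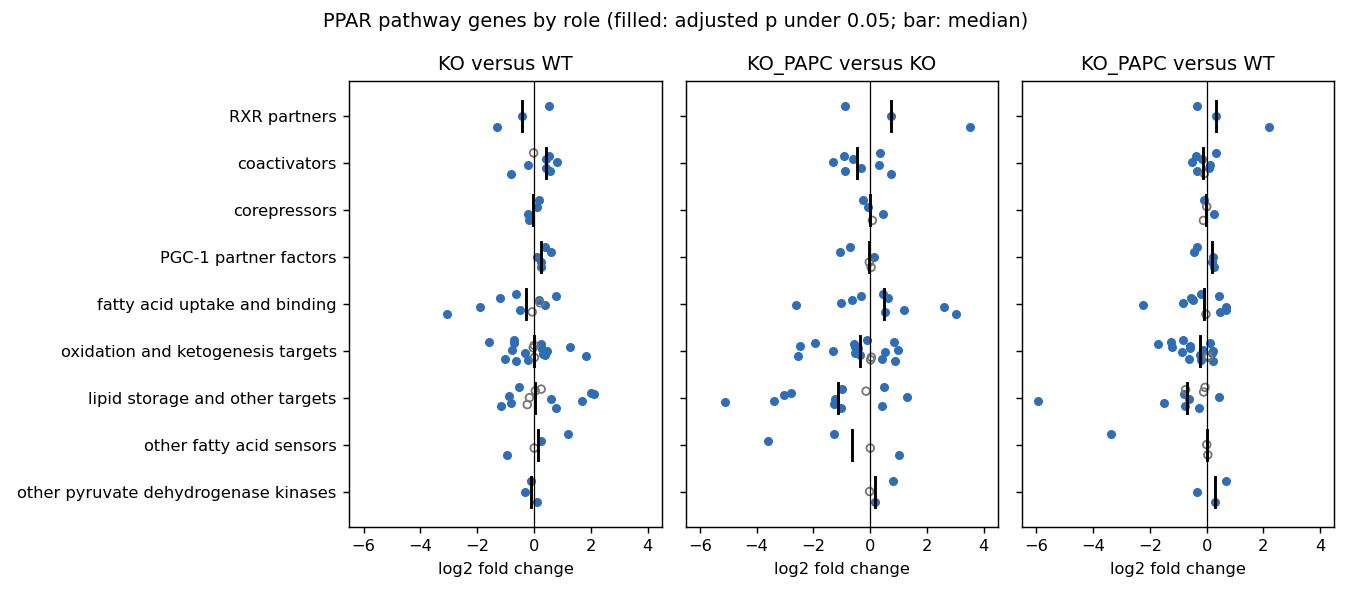
Log2 fold change of each tested PPAR pathway gene by role (rows) in the 3 comparisons (panels), filled where the adjusted p was under 0.05 and open otherwise, with the median of each role as a bar. In KO_PAPC versus KO the lipid storage and other targets have a median of -1.13 and the RXR partners one of 0.73. The former includes genes such as *Vnn1* and *Cidec* that passed the abundance filter there only through the KO libraries, where they are high. It is therefore no value for the role as a whole.

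For each member with at least 1 CPM in a group, the 2 genes with the most similar profile over the 9 libraries were taken by the root mean square difference of centred log2(CPM + 0.5), among 13633 protein-coding genes. *Ppara* was nearest to the keratin gene *Krt20* (0.0842), which had 0.276 ± 0.121, 1.17 ± 0.122 and 0.0523 ± 0.0232 CPM in WT, KO and KO_PAPC, and to *Rasal1* (0.0909). At this low level the added 0.5 compresses the profile of *Ppara*. *Pdk4* was nearest to *Amot* (0.0539), a gene of Hippo signalling that fell from 76.6 ± 2.47 CPM in KO to 26.3 ± 1.72 in KO_PAPC, and to *Ly75* (0.0597). *Fabp5* was nearest to *Usf1* (0.0553) and *Snrpn* (0.0553), *Angptl4* to *Dnlz* (0.0562) and *Tctex1d2* (0.0578), *Ppard* to *Cdk2ap2* (0.0325) and *Necap2* (0.0331), and *Ppargc1b* to *Zfp58* (0.0949) and *Colec12* (0.0989).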

How the data were processed

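Polyadenylated RNA libraries (TruSeq RNA v2, a kit that does not mark strand) were read as 51-base single ends. The authors deposited raw counts per Ensembl gene in 1 table for all 9 libraries. The submitters' processing notes name bcl2fastq 2.20.0.422, STAR 2.7.2b, featureCounts 1.6.5 and GRCm38; the paper's methods give another aligner for an earlier WT and KO analysis, and which one made the WT columns was not settled here. Reads of several positions or several genes were not counted. Columns left unused numbered 0.

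Symbols and positions came from GENCODE M21 (GRCm38), and 241 identifiers had none. Each comparison was fitted on its own 6 libraries by edgeR 4.0.16 (quasi-likelihood F test, R 4.3.3), TMM scaling, filterByExpr and Benjamini-Hochberg adjustment over all genes, called at an adjusted p under 0.05. SEs came from the F statistic. CPM used TMM factors over 9 libraries. Genes under the filter were described by counts and exact 95% counting intervals. The test was checked on simulated counts. Replicates of a group differed by more than sampling noise (chi-square per degree of freedom from 1.22 to 3.45), but by little. The common biological coefficient of variation was between 2.09% and 2.65%. SEs and p-values cover this spread between libraries and not the spread between clones. Same-numbered libraries of different groups did not deviate together (r from -0.0449 to 0.0798), so numbers did not pair libraries.

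Named were the 9 members, up to 3 genes per role of the pathway list with the largest change, at 1 CPM or more in a group (1 of them is not reported here), and the 2 most similar profiles per member. Isoforms were not separated. The members and all lists were chosen with earlier results of these data known.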

Additional observations from a re-analysis of the deposited data

How the results depend on the processing

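The counts of called genes and the log2 changes of the members and named pathway genes were recomputed with DESeq2 1.42.0, with RLE factors or library totals, with 2 other abundance filters, with all groups in 1 fit, with a replicate block, and without each library in turn, and the counts also with a tested minimum fold change of 2. Marker lists, counts by role, promoter matches and nearest profiles were not recomputed. The values for pathway genes were added after the data had been seen. Of 221 values of the members under these, 211 stayed in direction and on their side of 0.05, 8 gained a call, 0 lost one and 2 changed sign. Of 1026 of the named pathway genes the numbers were 991, 4, 10 and 21, and 3 of those 21 (*Tfam* and, in both comparisons of KO_PAPC, *Nr1h2*, by library totals) also became calls. With a minimum fold change of 2, called members numbered 1 for KO against WT, 3 for PA/PC in KO and 1 for KO_PAPC against WT, and called pathway genes 9, 18 and 6. Without an abundance filter 5 members were called in KO_PAPC versus WT, where the 4 members under the filter (*Ppara*, *Pparg*, *Ppargc1a*, *Cd36*) also entered the test.

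Scaling by library totals changed signs in KO_PAPC versus KO for *Ppard* (-0.0543), *Nrip1* (-0.0925), *Tfam* (-0.14), *Nr1h2* (-0.17) and *Pdk3* (-0.00258), and in KO_PAPC versus WT for *Angptl4* (-0.0475), *Nr1h3* (-0.12) and *Nr1h2* (-0.16), by its construction. Other filters put *Nr1h2* at -0.00819 (no filter, KO versus WT) and -0.00302 (a mean of 10 counts, KO_PAPC versus KO). The numbers do not pair libraries. With the replicate block *Ppard* was called in KO_PAPC versus WT (-0.11, adjusted p = 0.03634), *Nr1h2* was -6.923e-06 in KO_PAPC versus KO, and the counts of called pathway genes were 57, 58 and 52 as without it.

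With 1 library left out, *Nr1h2* ranged from -0.0445 to 0.0326 in KO versus WT, from -0.0283 to 0.0428 in KO_PAPC versus KO and from -0.0381 to 0.0381 in KO_PAPC versus WT. *Pdk2* ranged from -0.148 to 0.146 in KO_PAPC versus KO, and in KO_PAPC versus WT *Crabp2* ranged from -0.0461 to 0.00168 and *Nr1h3* from -0.00561 to 0.112. *Ppard* gained a call in KO_PAPC versus KO without KO_PAPC replicate 1 (0.14) or 3 (0.15), and in KO_PAPC versus WT without KO_PAPC replicate 2 (-0.16) or WT replicate 1 (-0.16). *Angptl4* gained one in KO_PAPC versus WT without KO_PAPC replicate 1 (0.16). Among pathway genes, calls were lost with DESeq2 for *Vnn1* and *Hnf4a* (KO versus WT) and for *Ncor1*, *Cidea* and *Pdk2* (KO_PAPC versus WT), for *Ncor1* there without a filter, for *Pdk3* in KO versus WT without WT replicate 3, and in KO_PAPC versus WT for *Cidea* without KO_PAPC replicate 3 or WT replicate 1 and *Pdk2* without KO_PAPC replicate 1. Calls were gained by *Crabp2* and *Nrip1* in KO_PAPC versus WT with library totals, and by *Nrip1* without KO_PAPC replicate 1 (KO_PAPC versus WT) or 2 (KO_PAPC versus KO). The cause of these changes was not tested. Depth limits what can be said of *Ppara*, *Pparg*, *Ppargc1a* and *Cd36*.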
